A study of Caenorhabditis elegans with 36 samples.

Results

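BAY2402234, a compound developed as an inhibitor of human dihydroorotate dehydrogenase, was compared with DMSO, the control, by RNA-seq of whole Caenorhabditis elegans. The libraries were taken by their labels: 4 of worms given BAY2402234 at 500 µM and 4 of worms given DMSO, together 8 of the 36 libraries of the series. All 8 came from batch 1, from the wild-type strain N2, and from worms fed Escherichia coli HT115 that carried an empty RNAi vector. About 3000 larvae of the first stage per sample were put on plates with the compound or DMSO and were collected together as adults of day 1, with 4 biological replicates per group. The plates of every group, DMSO included, also held IPTG, carbenicillin and 5-fluorouracil at 10 µM, a fluorinated uracil whose products block thymidylate synthase, so both groups carried a drug that acts on pyrimidine use. The other batch 1 groups used for direct contrasts were brequinar at 500 µM, a second inhibitor developed against human dihydroorotate dehydrogenase, with the empty vector, and dhod-1 RNAi, in which worms were fed bacteria expressing dhod-1 double-stranded RNA and were given DMSO. By its title, the study concerned mitochondrial stress responses and lifespan, and the labels do not state what this compound was to test.

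Dihydroorotate dehydrogenase sits in the inner mitochondrial membrane, where it oxidises dihydroorotate to orotate and hands the electrons to ubiquinone. It thereby ties the making of pyrimidines to the respiratory chain. The pyrimidines made by this route go into RNA and DNA, into the UDP-sugars used for glycoproteins, glycosaminoglycans and chitin, and into the CDP-linked precursors of membrane lipids, while a salvage route recovers uridine and cytidine. In an adult worm most messenger RNA comes from the germ line and the intestine, and the intestine makes the yolk proteins, stores fat and expresses most genes of digestion, detoxification and defence.

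The response was broad. Of 15142 genes tested, 7088 passed edgeR's quasi-likelihood test at a Benjamini-Hochberg adjusted p of 0.05, or 46.8%. Of these, 3519 rose (23.2%) and 3569 fell (23.6%), and here and below a gene is said to have risen or fallen only where it passed that test. The changes were unequal in size, since 1490 of the rises (9.84% of genes tested) but 150 of the falls (0.991%) were at least 2-fold. All 4 BAY2402234 libraries lay above all 4 DMSO libraries for 2994 genes (19.8%), and below them for 3438 genes (22.7%). The split between rises and falls depended on the scaling: with library totals alone in place of TMM scaling, 4724 genes rose and 1691 fell. That change moved the median log2 fold change of all genes to 0.27, from 0.10 with TMM scaling, so the level of every gene below is relative to a median that is itself set by the scaling.

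**Figure D1:**
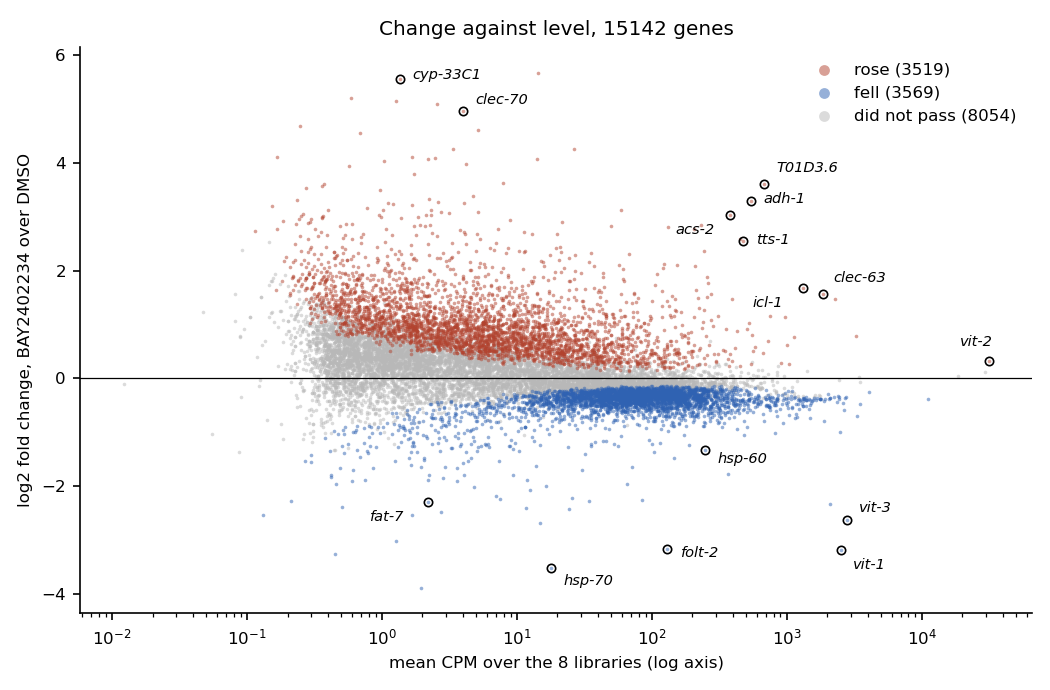
Log2 fold change of BAY2402234 over DMSO (vertical axis) against the mean CPM of the 8 libraries (horizontal axis, log scale) for each of the 15142 genes tested, coloured by whether the gene rose (3519) or fell (3569), or did not pass the test. Large rises spread over low and middle levels, while the many falls at high levels are small, apart from vit-1, vit-3, folt-2 and a few others that are circled and named.

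RNA came from whole worms, and genes of intestine, germ line, muscle, cuticle and neurons were all detected, with the yolk genes of the adult intestine alone at 8.15% to 10.8% of counts over the 8 libraries. The total counts per library were similar, 19934762 to 20346596 with BAY2402234 and 19852272 to 20435253 with DMSO. More genes had at least 1 count with BAY2402234, 20079 to 21164 per library, than with DMSO, 18854 to 19291 (exact permutation test, two-sided, p = 0.0286, the smallest that 4 against 4 allows). Replicates spread somewhat more with BAY2402234, where the median SD of log2 CPM over genes was 0.222, than with DMSO, where it was 0.176. The first principal component of the 8 libraries held 49.9% of the variance and set the groups apart. The second held 24.1% and set BAY2402234 replicate 1 at 52, far from the other 3 BAY2402234 libraries at -30, -23 and -15. DMSO replicates 1 to 4 lay at 31, -19, 19 and -14, with replicate 1 the highest there too. Values without BAY2402234 replicate 1 are therefore given beside each count of more than 5 genes below that moved by over 1.5 times without it. Counts of 5 or fewer often moved by 1 or 2 genes when a library was left out.

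Rises outnumbered falls among lowly expressed genes, and falls outnumbered rises among highly expressed ones. With the genes ranked by mean CPM and divided into 5 bins of equal number, 670 genes rose and 45 fell in the lowest bin, with a median log2 fold change of 0.56. In the middle bin 1073 rose and 341 fell. In the highest bin, from 74.4 CPM upward, 243 rose and 1827 fell, with a median of -0.26. Falls of at least 2-fold did not climb with level: they numbered 32, 53, 33, 16 and 16 from the lowest bin to the highest. Small changes pass the test more easily at high counts, and the part of this in the bins was not tested. Chromosomes differed as well: on the X chromosome, which is largely silent in the germ line, 765 of 2117 genes rose and 152 fell (36.1% and 7.18%, median 0.36), whereas 395 rose and 805 fell of 2462 on chromosome I (16.04% and 32.7%, median -0.07). Chromosome III was close to chromosome I, with 417 higher and 731 lower of 2329. With library totals the X chromosome had 1031 higher and 87 lower, and chromosome I turned to 567 higher and 356 lower. In RNA of whole worms, fewer cells of a type and less RNA per cell cannot be told apart, here or in any result below.

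**Figure D2:**
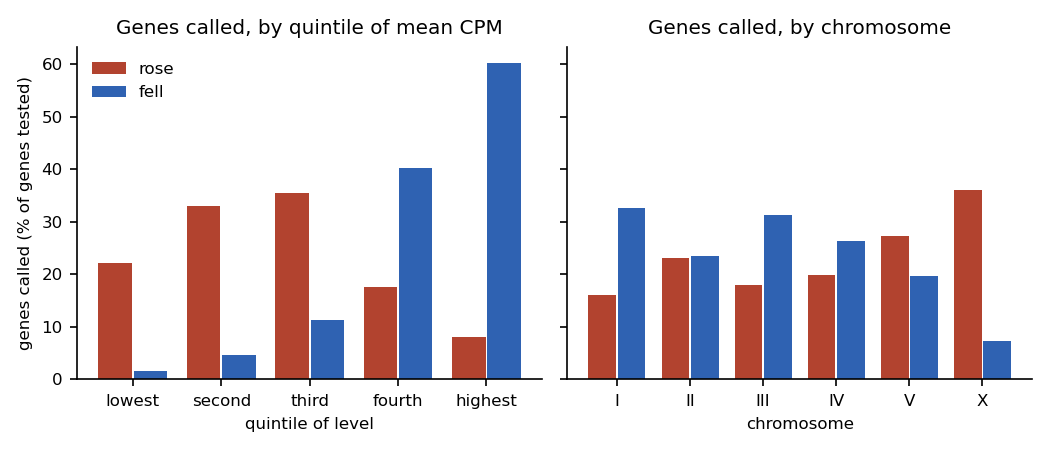
Share of genes tested that rose (red) and fell (blue) with BAY2402234 relative to DMSO, for 5 equal bins of mean CPM (left) and for each nuclear chromosome (right), both in percent on the vertical axis. Falls climb from 1.49% of the lowest bin to 60.3% of the highest, and the X chromosome has the highest share of rises, 36.1%, and the lowest share of falls, 7.18%.

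The genes of pyrimidine synthesis changed little in size. dhod-1, which encodes the worm's dihydroorotate dehydrogenase (WBGene00020932; chromosome I, 6736680 to 6741176, build WBcel235), had 56.4, 63.3, 68.2 and 58.5 CPM with BAY2402234, against 82.7, 79.8, 90.3 and 81.4 CPM with DMSO (log2 fold change -0.44, SE 0.08, edgeR adjusted p = 0.000249). CPM stands for counts per 1000000 of the scaled library total, and the 4 values are replicates 1 to 4 here and below. Each BAY2402234 library was below each DMSO library, but the drop was modest. pyr-1, the enzyme of the first 3 steps of the route, moved the other way, with 161, 169, 163 and 149.9 CPM with BAY2402234, against 128, 126, 132 and 134 CPM with DMSO (log2 fold change 0.31, SE 0.06, edgeR adjusted p = 0.000293). umps-1, which makes UMP from orotate, did not pass (106 ± 12.5 CPM with BAY2402234 and 118 ± 7.29 CPM with DMSO, SD, n = 4 each, edgeR adjusted p = 0.213). Further down, ctps-1, the CTP synthase, had 149.9, 190.3, 206 and 141 CPM with BAY2402234, against 233, 255, 250.3 and 235 CPM with DMSO (log2 fold change -0.5, SE 0.15, edgeR adjusted p = 0.00927). The UMP-CMP kinase gene F40F8.1 fell by a similar step (log2 fold change -0.37, SE 0.1, edgeR adjusted p = 0.00698), a call lost with library totals (edgeR adjusted p = 0.0648). Of the 5 genes, 1 rose and 3 fell, or 2 with library totals.

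Among 18 genes of pyrimidine salvage, breakdown and nucleoside transport, 2 rose and 8 fell, or 4 with library totals. cdd-2, a cytidine deaminase, had 21.5, 23.8, 25.2 and 18.3 CPM with BAY2402234, against 34.6, 44.6, 39.3 and 37.3 CPM with DMSO (log2 fold change -0.81, SE 0.15, edgeR adjusted p = 0.000283). ent-5, a nucleoside transporter of the equilibrative family, had 15.7, 15.5, 19.9 and 18.3 CPM with BAY2402234, against 34.8, 35.2, 26.4 and 28.04 CPM with DMSO (log2 fold change -0.84, SE 0.15, edgeR adjusted p = 0.000214). In both genes the groups were fully apart. The uridine kinase genes F19B6.1 (-0.47) and B0001.4 (-0.38) fell by less, as did the transporters ent-1 (-0.3), ent-6 (-0.32) and ent-4 (-0.71), all as log2 fold changes. upp-1, uridine phosphorylase, was called at an edgeR adjusted p of 0.0386 with a log2 fold change of -0.27, and it missed the threshold in 12 of 15 alternative settings, among them leaving out any 1 of these 8 libraries but DMSO replicate 1. The rises were in upb-1 (0.37) and dhp-2 (0.69), which act in the breakdown of uracil and thymine. The call of ent-1 was lost with library totals (edgeR adjusted p = 0.115). The call of ent-4 was lost without BAY2402234 replicate 2 and that of ent-6 without BAY2402234 replicate 1. Both calls were also lost with library totals and with a stricter filter on low counts. Over all settings the edgeR adjusted p reached 0.0809 for ent-4 and 0.21 for ent-6. The remaining members cdd-1, dpyd-1, dhp-1, ent-2, ent-3, ent-7 and the concentrative nucleoside transporter genes slc-28.1 and slc-28.2 had log2 fold changes between -0.39 and 0.47 and did not pass.

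Genes that use pyrimidines or feed thymidylate synthesis went both ways. Of 8 genes of thymidylate and deoxynucleotide synthesis, 1 rose and 4 fell. tyms-1, thymidylate synthase, had 70.7, 88.1, 90.5 and 89.8 CPM with BAY2402234, against 62.98, 66.8, 65.4 and 72.1 CPM with DMSO (log2 fold change 0.34, SE 0.09, edgeR adjusted p = 0.00383). Its replicate 1 was the lowest of the BAY2402234 libraries and lay within the range of the DMSO libraries. dhfr-1, dihydrofolate reductase, had 34.3, 30.2, 38.1 and 34.8 CPM with BAY2402234, against 52.9, 56.6, 45.1 and 44.7 CPM with DMSO (log2 fold change -0.54, SE 0.12, edgeR adjusted p = 0.00112), and mel-32, the serine hydroxymethyltransferase, had 253, 195, 231 and 246 CPM with BAY2402234, against 429.7, 386, 413 and 392 CPM with DMSO (log2 fold change -0.81, SE 0.12, edgeR adjusted p = 2.71e-05). The ribonucleotide reductase subunits rnr-1 (-0.03, edgeR adjusted p = 0.855) and rnr-2 (-0.01, edgeR adjusted p = 0.968) did not pass. Of 25 genes of UDP-sugar synthesis and of glycosaminoglycan and chitin assembly, 2 rose and 16 fell, 10 without BAY2402234 replicate 1 and 7 with library totals, where 4 rose. gfat-1, which makes the hexosamine precursor of UDP-N-acetylglucosamine, had 307, 336, 381 and 372 CPM with BAY2402234, against 502, 555, 528 and 514 CPM with DMSO (log2 fold change -0.59, SE 0.1, edgeR adjusted p = 0.000154). The glycosaminoglycan galactosyltransferase sqv-2 (-0.59) and gale-1, the UDP-galactose 4-epimerase (-0.4), fell too, while ogt-1, the O-GlcNAc transferase, rose (0.29).

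Folate and propionate genes held large changes of both signs. folt-2, a folate transporter (WBGene00018138; chromosome V, 2872465 to 2875600), had 49.9, 7.21, 11.1 and 36.5 CPM with BAY2402234, against 228, 248, 245 and 213 CPM with DMSO (log2 fold change -3.16, SE 0.61, edgeR adjusted p = 0.000541). Its lowest BAY2402234 libraries, replicates 2 and 3, were several-fold below replicates 1 and 4, and all 4 were far below DMSO. acdh-1, the acyl-CoA dehydrogenase of the propionate shunt, a route that takes over when vitamin B12 is scarce, had 306, 60.8, 127 and 172 CPM with BAY2402234, against 539, 561, 631 and 548 CPM with DMSO (log2 fold change -1.78, SE 0.41, edgeR adjusted p = 0.00195). hphd-1, the next dehydrogenase of that shunt, had 115, 29.3, 49.5 and 88.4 CPM with BAY2402234, against 157, 149, 176 and 163 CPM with DMSO (log2 fold change -1.19, SE 0.3, edgeR adjusted p = 0.00371). Both genes followed folt-2 in being lowest in replicates 2 and 3 and highest in replicate 1. mtrr-1, methionine synthase reductase, fell (log2 fold change -0.49, SE 0.09, edgeR adjusted p = 0.000209), whereas pmt-1, which methylates phosphoethanolamine on the way to phosphatidylcholine, had 585, 626, 546 and 571 CPM with BAY2402234, against 234, 196, 211 and 199.9 CPM with DMSO (log2 fold change 1.47, SE 0.15, edgeR adjusted p = 9.35e-07). cth-1, a cystathionine gamma-lyase, rose as well (1.01). Over the 31 tested genes of folate, methionine and propionate metabolism, 7 rose and 12 fell, or 11 and 9 with library totals. The 7 rises and 12 falls are 22.6% and 38.7% of the list, against 23.2% and 23.6% over all genes.

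A few transcripts, described singly and not as a list, rose several-fold. acs-2, an acyl-CoA synthetase known to rise on fasting under the nuclear receptor NHR-49 (WBGene00009221; chromosome V, 15567394 to 15569897), had 531, 1011, 584 and 565 CPM with BAY2402234, against 78.3, 56.4, 91.8 and 104 CPM with DMSO (log2 fold change 3.03, SE 0.32, edgeR adjusted p = 2.8e-06). Replicate 2 stood above the other 3 BAY2402234 libraries, and even the lowest was several times the highest DMSO library. adh-1, an alcohol dehydrogenase (WBGene00010790; chromosome V, 11888248 to 11889650), had 915, 1172, 832 and 1024 CPM with BAY2402234, against 135, 57.1, 89.3 and 122 CPM with DMSO (log2 fold change 3.29, SE 0.46, edgeR adjusted p = 3.42e-05). The 4 BAY2402234 libraries were close together and far above DMSO. icl-1, the glyoxylate cycle enzyme through which worms turn fat into sugar, had 1667, 2216, 1925 and 2224 CPM with BAY2402234, against 712, 421, 598 and 794 CPM with DMSO (log2 fold change 1.67, SE 0.23, edgeR adjusted p = 1.95e-05). The sequence-named gene T01D3.6 had 1529.9, 1417, 1264 and 822 CPM with BAY2402234, against 116, 63.97, 150.1 and 86.6 CPM with DMSO (log2 fold change 3.6, SE 0.35, edgeR adjusted p = 1.14e-06), and tts-1, a long noncoding RNA found in long-lived mutants, had 882, 937, 555 and 875 CPM with BAY2402234, against 161, 142, 113 and 143 CPM with DMSO (log2 fold change 2.54, SE 0.32, edgeR adjusted p = 1.62e-05).

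Many lipases rose, and a pair of their regulators changed. Of 25 annotated lysosomal and other lipases 17 could be tested, of which 9 rose and none fell, with a median log2 fold change of 0.73. lipl-3, a lysosomal lipase, had 7.102, 3.76, 3.702 and 5.07 CPM with BAY2402234, against 0.603, 0.505, 0.732 and 0.467 CPM with DMSO (log2 fold change 3.08, SE 0.38, edgeR adjusted p = 6.24e-06), and lipl-1 had 66.1, 57.1, 52.4 and 66.4 CPM with BAY2402234, against 15.4, 18.8, 11.8 and 10.9 CPM with DMSO (log2 fold change 2.09, SE 0.32, edgeR adjusted p = 6.79e-05). lipl-2 (63.4 ± 5.43 CPM with BAY2402234 and 20.98 ± 4.38 CPM with DMSO) and the fasting-induced lipase fil-1 (7.22 ± 1.71 CPM with BAY2402234 and 1.78 ± 0.6896 CPM with DMSO, SD, n = 4 each) rose too. hlh-30, the TFEB orthologue that activates lysosomal lipases and autophagy genes, had 132, 103, 94.4 and 125 CPM with BAY2402234, against 66.3, 54.98, 61.2 and 62.98 CPM with DMSO (log2 fold change 0.89, SE 0.11, edgeR adjusted p = 1.14e-05). mxl-3, which represses the same lipases in fed worms, had 2.82, 6.496, 6.14 and 7.92 CPM with BAY2402234, against 10.7, 23.1, 15.1 and 10.3 CPM with DMSO (log2 fold change -1.34, SE 0.28, edgeR adjusted p = 0.000746). The activator and the repressor thus moved in opposite directions, each with the groups fully apart. sbp-1, the SREBP orthologue that drives fat synthesis, rose as well (log2 fold change 1.0, SE 0.09, edgeR adjusted p = 3.59e-07).

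Other lipid enzymes were mixed. fat-7, the stearoyl-CoA desaturase that makes oleate, had 0.4097, 0.627, 1.22 and 0.712 CPM with BAY2402234, against 4.32, 3.64, 3.19 and 3.43 CPM with DMSO (log2 fold change -2.3, SE 0.29, edgeR adjusted p = 9.44e-06). Its sister enzyme fat-6 did not pass, with 129, 285, 253 and 331 CPM with BAY2402234, against 182, 222, 177 and 162 CPM with DMSO, and here replicate 1 was below all DMSO libraries while the other 3 were above them. The delta-6 desaturase gene fat-3 rose (283 ± 29.03 CPM with BAY2402234 and 129 ± 24.6 CPM with DMSO, SD, n = 4 each, log2 fold change 1.14). Of 62 tested genes of fatty acid activation and oxidation 19 rose and 17 fell, or 27 and 13 with library totals. Without DMSO replicate 2 the rises were 11. The 19 rises and 17 falls are 30.6% and 27.4% of the list, against 23.2% and 23.6% over all genes. At least 2-fold were 4 of those rises and 4 of those falls. The peroxisomal hydratase-type gene ech-9 rose (9.84 ± 1.901 CPM with BAY2402234 and 3.33 ± 2.05 CPM with DMSO), and kat-1, the mitochondrial ketoacyl-CoA thiolase, fell (97.4, 92.1, 108 and 96.1 CPM with BAY2402234, against 175, 176, 180.2 and 182 CPM with DMSO, log2 fold change -0.86, SE 0.09, edgeR adjusted p = 2.1e-06). In sphingolipid breakdown gba-1, a glucocerebrosidase, had 59.8, 66.04, 55.1 and 47.5 CPM with BAY2402234, against 19.6, 15.9, 17.9 and 18.2 CPM with DMSO (log2 fold change 1.67, SE 0.23, edgeR adjusted p = 1.92e-05), and the acid ceramidase asah-1 had 190.3, 185, 199.8 and 302 CPM with BAY2402234, against 82.3, 87.1, 81.3 and 63.6 CPM with DMSO (log2 fold change 1.48, SE 0.23, edgeR adjusted p = 8.44e-05). In both genes every BAY2402234 library was above every DMSO library.

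**Figure D3:**
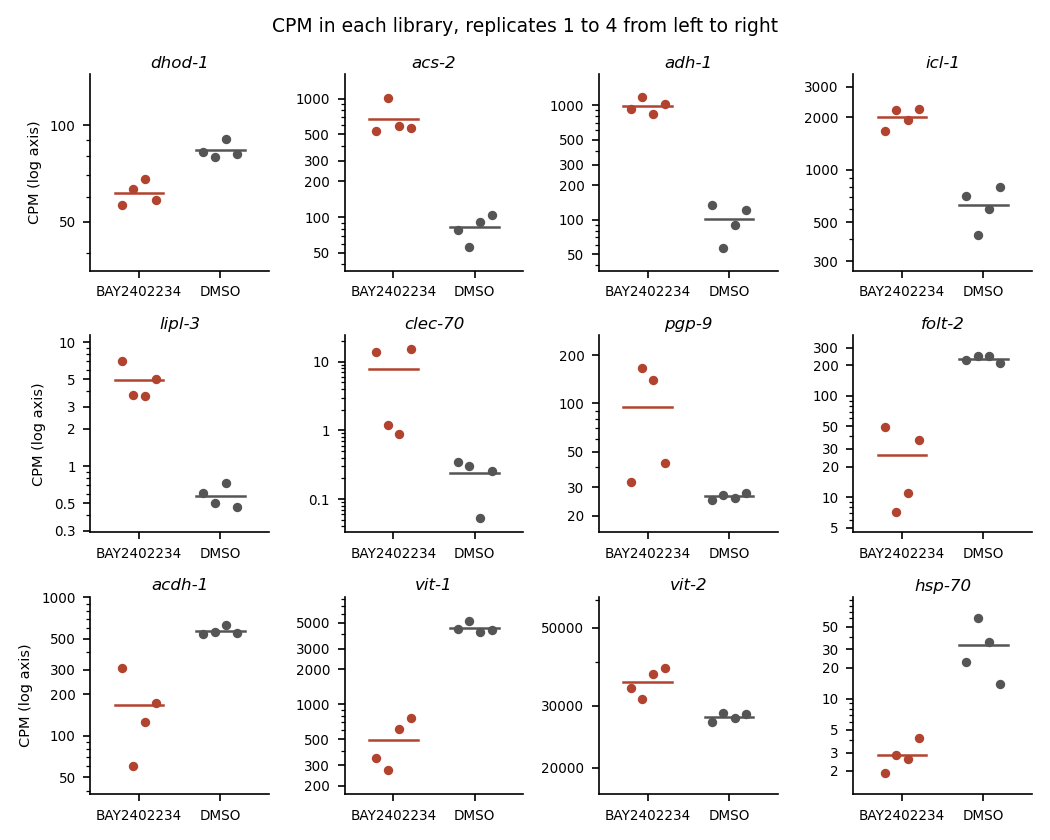
CPM (log axes) of 12 genes in each BAY2402234 library (red, left) and each DMSO library (grey, right), with replicates 1 to 4 from left to right and the group mean as a bar. The groups do not overlap in any panel, while clec-70, pgp-9, folt-2 and acdh-1 differ several-fold within the BAY2402234 group.

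The yolk genes split. The 6 vitellogenin genes encode the yolk proteins that the intestine of the adult exports to oocytes. vit-1 (WBGene00006925; chromosome X, 7727889 to 7733168) had 344, 272, 611 and 764 CPM with BAY2402234, against 4393, 5222, 4177 and 4323 CPM with DMSO (log2 fold change -3.19, SE 0.29, edgeR adjusted p = 4.28e-07). vit-3 had 385, 710.04, 1424 and 576 CPM with BAY2402234, against 4364, 5322, 4258 and 5198 CPM with DMSO (log2 fold change -2.63, SE 0.28, edgeR adjusted p = 2.22e-06), and vit-4 had 522, 414, 1104 and 750.3 CPM with BAY2402234, against 3378, 3173, 3615 and 3813 CPM with DMSO (log2 fold change -2.33, SE 0.26, edgeR adjusted p = 2.61e-06). In all 3 genes the highest BAY2402234 library was several-fold below the lowest DMSO library. vit-2 moved the other way by a small step, with 33753, 31273, 36836 and 38271 CPM with BAY2402234, against 26917, 28551, 27704 and 28398 CPM with DMSO (log2 fold change 0.33, SE 0.09, edgeR adjusted p = 0.00782). vit-5 had 14767, 17292, 22289 and 21898 CPM with BAY2402234, against 17409, 19287, 17758 and 19173 CPM with DMSO and vit-6 had 30973, 24445, 32749 and 34409 CPM with BAY2402234, against 28344, 28669.9, 27871 and 28562 CPM with DMSO, and neither passed (edgeR adjusted p = 0.735 for vit-5 and 0.39 for vit-6). Together the 6 genes held 8.16% to 10.8% of all counts with BAY2402234 and 8.15% to 8.74% with DMSO. vit-1 is close in sequence to vit-2, and vit-3 and vit-4 to vit-5. How reads that match several copies were counted is not given in the sources used here, so the division of counts between these copies is uncertain.

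Chaperones of the cytosol were lower almost throughout. Of 22 genes of cytosolic heat shock proteins and cochaperones, some of them near-identical copies, 18 fell, 12 of them at least 2-fold, and 1 rose, with a median log2 fold change of -1.16 against 0.10 for all genes. No member rose without BAY2402234 replicate 2, 3 or 4, without DMSO replicate 3 or 4, or with either other filter on low counts. hsp-70, an inducible member of the HSP70 family (WBGene00002026; chromosome I, 9320325 to 9322519), had 1.91, 2.87, 2.58 and 4.14 CPM with BAY2402234, against 22.5, 60.8, 35.3 and 13.9 CPM with DMSO (log2 fold change -3.52, SE 0.45, edgeR adjusted p = 1.72e-05). The DMSO libraries spread widely, and the lowest of them was still above all BAY2402234 libraries. Among small heat shock proteins, hsp-16.2 (log2 fold change -2.68, SE 0.45, edgeR adjusted p = 0.000168) and hsp-16.41 (log2 fold change -2.41, SE 0.41, edgeR adjusted p = 0.00019) had all 4 BAY2402234 libraries below all DMSO libraries, and members of the hsp-16 family are similar enough for reads to be shared among them. hsp-17 had 6.51, 4.35, 6.97 and 8.41 CPM with BAY2402234, against 26.5, 31.5, 23.3 and 23.8 CPM with DMSO (log2 fold change -2.0, SE 0.23, edgeR adjusted p = 3.21e-06). The constitutive members fell by less: hsp-1, the HSC70 orthologue, had 1567, 1681, 2016 and 1449 CPM with BAY2402234, against 3079.7, 3424, 3430.3 and 3395 CPM with DMSO (log2 fold change -0.99, SE 0.13, edgeR adjusted p = 1.51e-05), and hsp-90 had 2369.9, 2596, 2916 and 2175 CPM with BAY2402234, against 3755, 4105, 4250.4 and 4188 CPM with DMSO (log2 fold change -0.7, SE 0.13, edgeR adjusted p = 0.00023). The cochaperones hsp-110 (-1.04), dnj-13 (-0.89) and unc-23 (-1.27) fell too. hsf-1, which encodes the heat shock transcription factor, did not pass, with 95.5, 99.2, 108 and 93.8 CPM with BAY2402234, against 109, 118, 114 and 109 CPM with DMSO (log2 fold change -0.18, SE 0.08, edgeR adjusted p = 0.0763), although its BAY2402234 libraries were all below its DMSO libraries.

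The fall extended to other machinery of protein folding and turnover. All 8 subunits of the cytosolic chaperonin fell, with a median of -0.75, and cct-5 had 313, 364, 423 and 311 CPM with BAY2402234, against 624, 709, 655 and 651 CPM with DMSO (log2 fold change -0.9, SE 0.11, edgeR adjusted p = 6.72e-06). Of 33 proteasome subunits 31 fell and none rose, with a median of -0.62, and 31 fell with library totals. rpn-9, a lid subunit, had 142, 154, 177 and 138 CPM with BAY2402234, against 234, 244, 224 and 239 CPM with DMSO (log2 fold change -0.62, SE 0.09, edgeR adjusted p = 3e-05). The lid subunit rpn-12 (-0.78) and the core subunit pas-1 (-0.73) fell by similar amounts. Within the endoplasmic reticulum the picture was mixed: of 23 chaperones and stress sensors 4 rose and 10 fell, and their median of -0.11 became 0.06 with library totals, where 6 rose and 5 fell. The 4 rises were 2 without BAY2402234 replicate 3, BAY2402234 replicate 4 or DMSO replicate 3. hsp-4, the BiP orthologue that rises in endoplasmic reticulum stress, had 231, 275, 312 and 269.8 CPM with BAY2402234, against 411, 432, 419 and 434 CPM with DMSO (log2 fold change -0.64, SE 0.1, edgeR adjusted p = 6.38e-05), and the sensor gene atf-6 rose (log2 fold change 0.63, SE 0.11, edgeR adjusted p = 0.000181).

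Mitochondrial chaperones were lower as well. hsp-60 and hsp-6 are the standard reporters of the mitochondrial unfolded protein response, in which the transcription factor ATFS-1 raises chaperones and proteases. hsp-60 had 125, 139, 191 and 109.97 CPM with BAY2402234, against 312, 370.4, 394 and 338 CPM with DMSO (log2 fold change -1.33, SE 0.22, edgeR adjusted p = 0.000162), and hsp-6 had 317, 362, 374 and 321 CPM with BAY2402234, against 493, 541, 525 and 499.9 CPM with DMSO (log2 fold change -0.58, SE 0.11, edgeR adjusted p = 0.000389). Neither gene had a BAY2402234 library as high as its lowest DMSO library. Of 20 genes of mitochondrial chaperones, proteases and import 16 fell and 1 rose, or none without BAY2402234 replicate 1 or 4 or DMSO replicate 2 or 3, among the falls the protease genes spg-7 (-0.66) and lonp-1 (-0.49) and the prohibitins phb-1 (-0.71) and phb-2 (-0.69). atfs-1 itself had 74.7, 88.9, 90.4 and 84.03 CPM with BAY2402234, against 101, 101, 102 and 104 CPM with DMSO (log2 fold change -0.27, SE 0.09, edgeR adjusted p = 0.019), and this call was lost in 6 of 15 alternative settings, among them leaving out BAY2402234 replicate 1, DMSO replicate 3 or DMSO replicate 4.

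Many nuclear genes for the respiratory chain and the mitochondrial ribosome fell by small steps. Of 33 nuclear subunits of complex I 28 fell, or 8 with library totals, with a median of -0.27, and ndus-8 is an example (log2 fold change -0.44, SE 0.07, edgeR adjusted p = 4.6e-05). Falls numbered 11 of 15 for the ATP synthase, or 4 with library totals, where 2 rose. sdha-2, a complex II subunit, had 99.3, 126, 140.2 and 96.5 CPM with BAY2402234, against 176, 188, 183 and 189 CPM with DMSO (log2 fold change -0.67, SE 0.12, edgeR adjusted p = 0.000244), ucr-2.3, a complex III core subunit, had 61.6, 86.3, 97.5 and 63.8 CPM with BAY2402234, against 125, 143, 128 and 135 CPM with DMSO (log2 fold change -0.78, SE 0.16, edgeR adjusted p = 0.000891), and asb-1, the germ line form of an ATP synthase subunit, had 146, 172, 204 and 121 CPM with BAY2402234, against 254, 275, 265 and 249 CPM with DMSO (log2 fold change -0.7, SE 0.17, edgeR adjusted p = 0.00283). All 3 showed the groups apart. Among 69 mitochondrial ribosomal proteins 61 fell and none rose, with a median of -0.39, for example mrpl-24 (23.2, 26.3, 28.6 and 21.01 CPM with BAY2402234, against 38.97, 40.2, 44.1 and 37.5 CPM with DMSO, log2 fold change -0.7, SE 0.1, edgeR adjusted p = 2.65e-05). Of 10 tested protein-coding genes on the mitochondrial DNA 1 rose and none fell, and 3 rose without BAY2402234 replicate 3, with library totals or with a stricter filter on low counts. The gene was ND1 (133, 109, 93.4 and 128 CPM with BAY2402234, against 91.6, 75.9, 82.8 and 92.3 CPM with DMSO, log2 fold change 0.44, SE 0.14, edgeR adjusted p = 0.0145), whose call was lost without BAY2402234 replicate 4, and COX1 did not pass (1487 ± 227 CPM with BAY2402234 and 1349.6 ± 114 CPM with DMSO, SD, n = 4 each, edgeR adjusted p = 0.377). They held 0.293% to 0.424% of counts with BAY2402234 and 0.27% to 0.335% with DMSO.

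The cytosolic translation machinery was lower as well. Of 80 cytosolic ribosomal proteins 62 fell and none rose, with a median of -0.39. This count rested on single libraries: it was 33 without BAY2402234 replicate 1, 29 without BAY2402234 replicate 4, 30 without DMSO replicate 3 and 39 without DMSO replicate 4, and 27 with library totals. rpl-18 had 1082, 1075, 1226 and 985 CPM with BAY2402234, against 1573, 1528, 1596 and 1559 CPM with DMSO (log2 fold change -0.52, SE 0.1, edgeR adjusted p = 0.000272). Of 20 cytosolic aminoacyl-tRNA synthetases 19 fell, or 15 with library totals, among them gars-1, the glycyl-tRNA synthetase, with 92.5, 100.3, 118 and 94.3 CPM with BAY2402234, against 176, 200.04, 184 and 186 CPM with DMSO (log2 fold change -0.88, SE 0.09, edgeR adjusted p = 1.14e-06). nars-1, the asparaginyl-tRNA synthetase, fell too (-0.63). Of 39 initiation and elongation factors 2 rose and 33 fell. The elongation factor 1 alpha genes divided: eef-1A.1 had 10195, 9572, 11230.2 and 7579 CPM with BAY2402234, against 12387, 12004, 12905 and 12997 CPM with DMSO (log2 fold change -0.38, SE 0.13, edgeR adjusted p = 0.0178), while eef-1A.2 had 981, 834, 814 and 960.4 CPM with BAY2402234, against 592, 529, 576 and 533 CPM with DMSO (log2 fold change 0.69, SE 0.14, edgeR adjusted p = 0.000597). The coding sequences of that pair are nearly the same, so shared reads may blur the division. The call of eef-1A.1 was lost without BAY2402234 replicate 4, DMSO replicate 3 or DMSO replicate 4. It was also lost with library totals and with a stricter filter on low counts. Splicing factors fell in 28 of 38 cases, or 14 without BAY2402234 replicate 1 and 13 with library totals, where 2 rose.

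**Figure D4:**
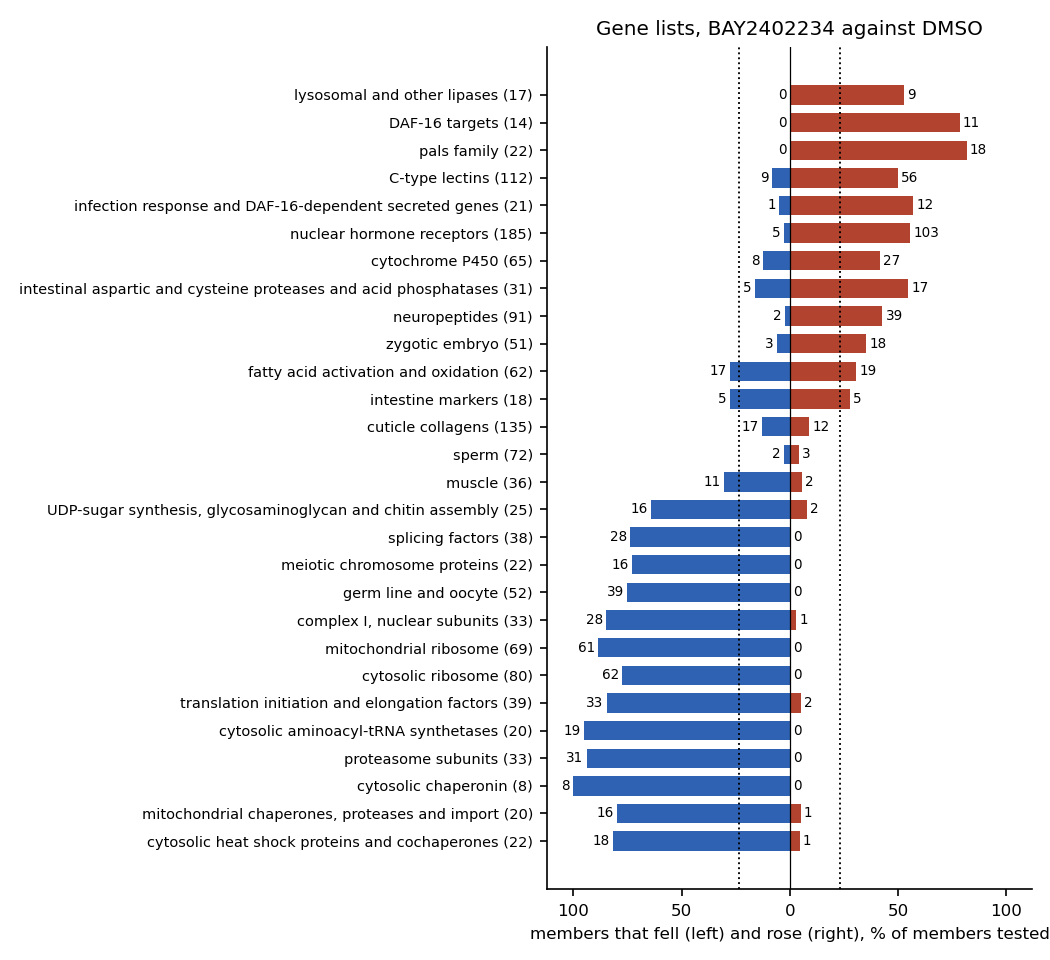
Share of the tested members of 28 gene lists that rose (red, to the right) and fell (blue, to the left) with BAY2402234 relative to DMSO, in percent, with the number tested in parentheses and the number called beside each bar. Dotted lines mark the shares over all genes, 23.2% risen and 23.6% fallen. These shares differ by level: they were 22.1% and 1.49% in the lowest bin of mean CPM and 8.02% and 60.3% in the highest. The lists were not matched for level. Lists of lipases, DAF-16 targets, pals genes, lectins and nuclear receptors extend to the right, and lists of chaperones, proteasome, translation and germ line extend to the left, while the median log2 fold change of muscle changes its sign with library totals.

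Many defence genes rose. C-type lectins are secreted sugar-binding proteins, many of them made by the intestine in response to bacteria. Of 238 annotated members 112 could be tested, and 56 rose and 9 fell, or 4 with library totals, with a median of 0.79. clec-70 (WBGene00021581; chromosome IV, 3932708 to 3936307) had 13.8, 1.21, 0.877 and 15.1 CPM with BAY2402234, against 0.352, 0.303, 0.0523 and 0.2596 CPM with DMSO (log2 fold change 4.97, SE 0.82, edgeR adjusted p = 0.00013). Its replicates 1 and 4 were more than 10 times replicates 2 and 3, and all 4 were above DMSO. clec-7 showed the same order in a weaker form, with 55.999, 24.5, 16.2 and 55.8 CPM with BAY2402234, against 6.58, 3.74, 4.602 and 5.56 CPM with DMSO (log2 fold change 2.9, SE 0.39, edgeR adjusted p = 1.99e-05). clec-4 had 96.4, 109.7, 112 and 29.95 CPM with BAY2402234, against 10.5, 9.196, 20.7 and 8.98 CPM with DMSO (log2 fold change 2.82, SE 0.41, edgeR adjusted p = 4.43e-05), and there replicate 4 was the lowest. clec-66 had 256, 286, 237 and 142 CPM with BAY2402234, against 36.6, 24.96, 41.3 and 28.2 CPM with DMSO (log2 fold change 2.81, SE 0.25, edgeR adjusted p = 5.55e-07), and clec-63, 1 of the 6 genes with the largest gain in mean CPM, had 3198, 2756, 2576 and 2588 CPM with BAY2402234, against 1166, 663, 972 and 966 CPM with DMSO (log2 fold change 1.56, SE 0.21, edgeR adjusted p = 1.86e-05).

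The pals genes, a worm family of which many members rise on infection by microsporidia and virus, had a median of 1.21. Of 37 annotated members 22 could be tested, of which 18 rose and none fell. pals-31 had 9.11, 8.29, 7.11 and 7.39 CPM with BAY2402234, against 0.703, 0.606, 0.366 and 0.312 CPM with DMSO (log2 fold change 3.98, SE 0.42, edgeR adjusted p = 1.39e-06). pals-19 had 8.19, 8.56, 8.13 and 8.81 CPM with BAY2402234, against 2.11, 1.31, 0.994 and 2.13 CPM with DMSO (log2 fold change 2.36, SE 0.39, edgeR adjusted p = 0.000117). In both, the 4 BAY2402234 libraries lay within a narrow range well above DMSO. pals-18 (1.74) and pals-39 (2.23) rose as well. eol-1, another gene of that response, rose from very low levels (2.204 ± 1.84 CPM with BAY2402234 and 0.231 ± 0.148 CPM with DMSO, SD, n = 4 each, log2 fold change 3.23).

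Lysozymes and other antimicrobial genes divided. Of 38 tested lysozymes, saposin-like and antimicrobial peptides, 15 rose and 9 fell, or 19 and 7 with library totals. lys-7, a lysozyme and target of the transcription factor DAF-16, had 426, 333, 248 and 424 CPM with BAY2402234, against 76.8, 32.5, 45.3 and 54.6 CPM with DMSO (log2 fold change 2.77, SE 0.33, edgeR adjusted p = 7.93e-06), and lys-8 had 495, 411, 417 and 312 CPM with BAY2402234, against 147, 109.95, 153 and 140.2 CPM with DMSO (log2 fold change 1.57, SE 0.17, edgeR adjusted p = 2.61e-06). ilys-3, an invertebrate-type lysozyme that digests bacteria, had 4.83, 2.69, 1.46 and 4.05 CPM with BAY2402234, against 0.151, 0.303, 0.366 and 0.104 CPM with DMSO (log2 fold change 3.79, SE 0.6, edgeR adjusted p = 7.24e-05). The saposin-like genes spp-17 and spp-23 fell instead: spp-17 had 2.14, 11.8, 15.2 and 1.87 CPM with BAY2402234, against 43.3, 34.97, 40.7 and 46.4 CPM with DMSO (log2 fold change -2.42, SE 0.47, edgeR adjusted p = 0.000577), and spp-23 had 1.37, 0.762, 0.828 and 4.72 CPM with BAY2402234, against 8.14, 8.79, 7.58 and 6.49 CPM with DMSO (log2 fold change -2.0, SE 0.47, edgeR adjusted p = 0.002). spp-17 was lowest in replicates 1 and 4, and spp-23 was highest in replicate 4. Of 21 infection response and DAF-16-dependent secreted genes 12 rose and 1 fell, or 2 without BAY2402234 replicate 1 and none with library totals, among the rises irg-4 (499, 136, 147 and 221 CPM with BAY2402234, against 69.8, 49.5, 67.1 and 47.04 CPM with DMSO, log2 fold change 2.1, SE 0.34, edgeR adjusted p = 0.00012) and dod-22 (48.7, 29.1, 23.3 and 40.9 CPM with BAY2402234, against 8.04, 3.79, 7.32 and 7.06 CPM with DMSO, log2 fold change 2.44, SE 0.36, edgeR adjusted p = 4.14e-05). Of 14 tested targets of DAF-16, the FOXO factor of insulin signalling, 11 rose and none fell, with a median of 0.85. mtl-1, a metallothionein, had 20.1, 53.9, 54.02 and 10.2 CPM with BAY2402234, against 6.48, 2.98, 4.13 and 7.94 CPM with DMSO (log2 fold change 2.68, SE 0.53, edgeR adjusted p = 0.00064), with replicates 2 and 3 well above replicates 1 and 4. nnt-1, the mitochondrial transhydrogenase that makes NADPH, had 35.3, 39.6, 36.7 and 30.6 CPM with BAY2402234, against 8.04, 4.55, 6.43 and 9.09 CPM with DMSO (log2 fold change 2.34, SE 0.36, edgeR adjusted p = 7.44e-05), and aqp-1, an aquaglyceroporin, had 168, 186, 118 and 217 CPM with BAY2402234, against 51.2, 35.02, 45.3 and 48.1 CPM with DMSO (log2 fold change 1.94, SE 0.21, edgeR adjusted p = 2.61e-06). icl-1 and lys-7, described above, are members of that list too.

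Detoxification enzymes gave large rises in some subfamilies and falls in others. Cytochromes P450 oxidise foreign compounds, sterols and fatty acids. Of 65 tested, 27 rose, 24 of them at least 2-fold, and 8 fell, or 5 with library totals. cyp-33C1 had 2.19, 4.08, 2.05 and 2.45 CPM with BAY2402234, against 0.0502, 0, 0.105 and 0.0519 CPM with DMSO (log2 fold change 5.55, SE 0.52, edgeR adjusted p = 4.28e-07), with 236 counts in all against 4. The family members cyp-33C12 (5.14), cyp-33C5 (3.24) and cyp-33C4 (2.38) rose as well, and family members are similar, so the division of shared reads is uncertain. cyp-25A2 had 3.73, 2.96, 3.897 and 3.29 CPM with BAY2402234, against 7.33, 8.89, 8.78 and 7.27 CPM with DMSO (log2 fold change -1.22, SE 0.14, edgeR adjusted p = 4.39e-06) and was lower in all 4 libraries. daf-36, a Rieske oxygenase rather than a P450 that starts the synthesis of dafachronic acid from cholesterol, had 1.502, 1.57, 1.75 and 2.18 CPM with BAY2402234, against 5.27, 6.82, 6.07 and 3.89 CPM with DMSO (log2 fold change -1.65, SE 0.22, edgeR adjusted p = 1.55e-05), and daf-12, the receptor of dafachronic acid, had 29.8, 24.01, 22.2 and 25.01 CPM with BAY2402234, against 15.2, 14.4, 14.1 and 13.8 CPM with DMSO (log2 fold change 0.81, SE 0.12, edgeR adjusted p = 3.53e-05).

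Conjugating enzymes and transporters were mixed. Of 62 UDP-glucuronosyltransferases 21 rose and 10 fell, with ugt-18 at 16.98, 13.9, 14.1 and 13.1 CPM with BAY2402234, against 1.41, 0.505, 1.15 and 1.61 CPM with DMSO (log2 fold change 3.63, SE 0.57, edgeR adjusted p = 9.12e-05). Of 37 glutathione S-transferases 8 rose and 10 fell, or 11 and 8 with library totals. The 8 rises and 10 falls are 21.6% and 27% of the list, close to the 23.2% and 23.6% over all genes. gst-4, the usual reporter of the oxidative stress factor SKN-1, had 5.92, 4.84, 4.97 and 5.96 CPM with BAY2402234, against 14.6, 11.7, 14.5 and 13.1 CPM with DMSO (log2 fold change -1.31, SE 0.22, edgeR adjusted p = 0.000144), and gst-1 had 99.9, 111, 127 and 119 CPM with BAY2402234, against 227, 263, 228 and 219 CPM with DMSO (log2 fold change -1.04, SE 0.08, edgeR adjusted p = 7.84e-08). Both glutathione transferases were lower in each BAY2402234 library than in any DMSO library. comt-4, a catechol O-methyltransferase family gene, had 2.73, 17.9, 13.8 and 2.31 CPM with BAY2402234, against 0.753, 1.11, 0.837 and 1.61 CPM with DMSO (log2 fold change 3.08, SE 0.78, edgeR adjusted p = 0.00389). Of 47 ABC transporters 17 rose and 8 fell, or 5 without BAY2402234 replicate 1 and 4 with library totals. The P-glycoprotein gene pgp-9 had 32.2, 166, 141 and 42.6 CPM with BAY2402234, against 25.2, 26.8, 25.9 and 27.8 CPM with DMSO (log2 fold change 1.85, SE 0.34, edgeR adjusted p = 0.000402). For comt-4 and pgp-9, replicates 2 and 3 were several-fold above replicates 1 and 4, which lay close to DMSO. mrp-5, which exports heme from the intestine, had 536, 372, 319.6 and 489 CPM with BAY2402234, against 165, 183, 229 and 188 CPM with DMSO (log2 fold change 1.16, SE 0.18, edgeR adjusted p = 6.96e-05). The metal transporters smf-3 (log2 fold change 2.29, SE 0.27, edgeR adjusted p = 5.06e-06) and cdf-2 (log2 fold change 1.17, SE 0.21, edgeR adjusted p = 0.000248) rose, and catp-3, a cation-transporting ATPase family gene, had 9.65, 8.74, 11.7 and 6.097 CPM with BAY2402234, against 39.9, 49.1, 44.9 and 33.5 CPM with DMSO (log2 fold change -2.21, SE 0.18, edgeR adjusted p = 7.84e-08).

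Many nuclear hormone receptors rose by small steps. Of 185 tested, 103 rose and 5 fell, or 124 and 2 with library totals, with a median of 0.58, and 28 of the rises were at least 2-fold. nhr-112 had 11.3, 22.8, 21.8 and 7.57 CPM with BAY2402234, against 2.76, 1.16, 2.09 and 2.28 CPM with DMSO (log2 fold change 2.93, SE 0.34, edgeR adjusted p = 3.21e-06), again with replicates 2 and 3 the highest. nhr-35 (1.17), nhr-119 (1.22) and nhr-57, a known target of the hypoxia factor HIF-1 (1.06), are further examples. Of 11 tested genes of the responses to hypoxia and hydrogen sulfide, 6 rose and 1 fell, and the fall was lost in 9 of 15 alternative settings, BAY2402234 replicate 1 left out and library totals among them.

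Digestive proteases were mostly higher. Of 31 tested intestinal proteases and acid phosphatases 17 rose and 5 fell, with a median of 0.66. asp-6, an aspartic protease, had 4205, 3036, 3069 and 3169 CPM with BAY2402234, against 1397, 1019, 1209.6 and 1236 CPM with DMSO (log2 fold change 1.47, SE 0.21, edgeR adjusted p = 3.09e-05), and asp-1 had 4504, 3323, 3738 and 4927 CPM with BAY2402234, against 2771, 2029, 2397 and 2358 CPM with DMSO (log2 fold change 0.79, SE 0.17, edgeR adjusted p = 0.00125). cpr-1, a cathepsin B type protease, had 662, 728, 599.6 and 1109 CPM with BAY2402234, against 172, 144, 96.9 and 101 CPM with DMSO (log2 fold change 2.59, SE 0.45, edgeR adjusted p = 0.000227). The acid phosphatase gene pho-13 fell, with 3.92, 0.762, 1.41 and 4.495 CPM with BAY2402234, against 12.4, 10.9, 15.6 and 11.01 CPM with DMSO (log2 fold change -2.23, SE 0.44, edgeR adjusted p = 0.000565), and its replicates 2 and 3 were the lowest. General intestinal markers did not move one way: of 18, 5 rose and 5 fell, or 6 and 3 with library totals. The 5 are 27.8% of the list each way, close to the 23.2% risen and 23.6% fallen over all genes. elt-2, a GATA factor of the intestine, had 16.4, 12.1, 10.3 and 14.2 CPM with BAY2402234, against 6.43, 6.67, 6.85 and 6.18 CPM with DMSO (log2 fold change 1.02, SE 0.19, edgeR adjusted p = 0.000283), and pho-1, an intestinal acid phosphatase, fell (log2 fold change -1.23, SE 0.18, edgeR adjusted p = 3.98e-05). The intestinal list held 0.67% to 0.977% of counts with BAY2402234 and 0.535% to 0.661% with DMSO. Its part in the intestinal results above was not tested.

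Germ line genes were lower. Of 52 genes of the germ line and oocytes 39 fell and none rose, with a median of -0.46, and the falls numbered 25 without BAY2402234 replicate 1 and 21 with library totals. gld-1, a translational repressor of meiotic germ cells, had 828, 842, 926 and 879.7 CPM with BAY2402234, against 1447, 1535, 1451 and 1341 CPM with DMSO (log2 fold change -0.73, SE 0.15, edgeR adjusted p = 0.000574). cey-2, a Y-box RNA-binding protein of the germ line, had 1037, 1128, 1314 and 1008 CPM with BAY2402234, against 1819, 1915, 1887 and 1883 CPM with DMSO (log2 fold change -0.74, SE 0.16, edgeR adjusted p = 0.00116), and cgh-1, an RNA helicase of germ granules, had 1268, 1351, 1569.9 and 1368 CPM with BAY2402234, against 2328, 2682, 2396 and 2231 CPM with DMSO (log2 fold change -0.79, SE 0.16, edgeR adjusted p = 0.000603). The 4 BAY2402234 libraries were close to each other in all 3 genes and below DMSO. The list held 2.56% to 2.7% of counts with BAY2402234 and 3.27% to 3.48% with DMSO. The part of this lower germ line share in the falls of ribosomal, proteasome, chaperone and mitochondrial genes, which germ cells also express, was not tested.

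Genes of the cell cycle and of DNA metabolism fell by small steps, and their counts depended on single libraries. In the 4 lists below 52.6%, 51.2%, 52.9% and 72.7% of members fell, in the order given, against 23.6% over all genes. Of all genes in the fourth and highest bins of mean CPM, 40.3% and 60.3% fell. The lists were not matched for level. Of 38 DNA replication genes 20 fell, but 7 without BAY2402234 replicate 1, 9 without BAY2402234 replicate 4, 8 without DMSO replicate 2 or DMSO replicate 3, and 11 without DMSO replicate 4. Of 43 genes of mitosis and the cell cycle 22 fell, or 10, 13 and 14 without BAY2402234 replicate 1, DMSO replicate 2 and DMSO replicate 3. Of 34 genes of DNA repair and the damage response 18 fell, or 9 and 11 without BAY2402234 replicate 1 and DMSO replicate 2. Of 22 meiotic chromosome genes 16 fell, or 8 to 9 without BAY2402234 replicate 1, BAY2402234 replicate 4, DMSO replicate 2 or DMSO replicate 3. With library totals the falls in these 4 lists numbered 6, 9, 5 and 6, in the same order. With TMM scaling and all libraries, the 1 member of the 4 lists that rose was cki-1, an inhibitor of cyclin-dependent kinases, with 13.9, 7.93, 8.82 and 12.6 CPM with BAY2402234, against 4.72, 3.84, 4.76 and 4.21 CPM with DMSO (log2 fold change 1.3, SE 0.23, edgeR adjusted p = 0.000213). The rises of the first 3 lists numbered 1, 3 and 2 without BAY2402234 replicate 1, and those of all 4 were 2, 4, 2 and 1 with library totals.

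Few sperm genes passed the test. The share of counts held by sperm, collagen and muscle genes was highest in replicate 1 with BAY2402234 and also with DMSO. Of 72 sperm genes 3 rose and 2 fell, with a median of 0.05 that became -0.78 without BAY2402234 replicate 1, where 4 fell. With library totals 6 rose and 1 fell. In DMSO replicates 1 to 4 the sperm list held 0.0754%, 0.0405%, 0.0669% and 0.0488% of counts. It held 0.124% in BAY2402234 replicate 1 and 0.0404% to 0.0445% in the other 3. Of 135 cuticle collagens 12 rose and 17 fell, or 28 without that library and 11 with library totals, where 15 rose, for example col-159 (96.97, 40.5, 51.2 and 50.9 CPM with BAY2402234, against 151, 121, 151 and 109 CPM with DMSO, log2 fold change -1.15, SE 0.21, edgeR adjusted p = 0.000362). Of 36 muscle genes 2 rose and 11 fell, with 1 rise without that library, and their median of -0.06 became 0.11 with library totals, where 3 rose and 6 fell. tni-1, a troponin I of body wall muscle, had 16.3, 8.11, 10.9 and 10.5 CPM with BAY2402234, against 23.1, 19.3, 24.3 and 20.8 CPM with DMSO (log2 fold change -0.93, SE 0.17, edgeR adjusted p = 0.000229), and act-2, an actin gene, had 616, 684, 783 and 641 CPM with BAY2402234, against 1171, 1346, 1135 and 1158 CPM with DMSO (log2 fold change -0.82, SE 0.11, edgeR adjusted p = 1.11e-05). The actin genes are near-identical in their coding sequence, so act-2 may share reads with them.

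Neuropeptide genes rose more often than they fell. Of 91 tested neuropeptide genes 39 rose and 2 fell, with a median of 0.67. Leaving out each library in turn gave 27 to 62 rises, with 28 without BAY2402234 replicate 1 and 62 without BAY2402234 replicate 3. With library totals 59 rose. nlp-12, a neuropeptide of the DVA neuron, had 9.11, 7.35, 7.26 and 6.76 CPM with BAY2402234, against 3.36, 2.98, 4.24 and 4.26 CPM with DMSO (log2 fold change 1.04, SE 0.18, edgeR adjusted p = 0.000192), and flp-15 had 8.33, 7.66, 6.33 and 7.57 CPM with BAY2402234, against 3.77, 3.74, 3.29 and 3.95 CPM with DMSO (log2 fold change 1.02, SE 0.15, edgeR adjusted p = 2.85e-05). Each gene was higher in all 4 BAY2402234 libraries than in any DMSO library. Of 28 general neuronal genes 7 rose and none fell, or 14 both without BAY2402234 replicate 3 and with library totals. The 7 are 25% of the list, close to the 23.2% over all genes. Of 23 insulin-like peptide genes 4 rose, or 17.4%, which is below that share. Among them was ins-7, an agonist of the insulin receptor DAF-2, with 8.104, 4.704, 3.21 and 6.05 CPM with BAY2402234, against 0.954, 0.808, 1.31 and 1.56 CPM with DMSO (log2 fold change 2.25, SE 0.34, edgeR adjusted p = 4.58e-05). The neuropeptide list held 0.043% to 0.0759% of counts with BAY2402234 and 0.0336% to 0.0434% with DMSO.

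Within the BAY2402234 group, some genes split the replicates in pairs. Replicates 1 and 4 were above replicates 2 and 3 for clec-70, clec-7, folt-2, acdh-1 and hphd-1. Replicates 2 and 3 were above replicates 1 and 4 for comt-4, pgp-9, mtl-1, spp-17 and nhr-112. These 10 genes were singled out after their values were seen. The labels name nothing that sets those replicates apart.

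BAY2402234 was next set directly against brequinar, the 1 pair of batch 1 compounds given at a matched dose. The direct contrast called 9598 of 15142 genes (63.4%), of which 5021 were higher and 4577 lower with BAY2402234 (33.2% and 30.2%). Differences of at least 2-fold numbered 3064 higher and 268 lower (20.2% and 1.77%), and with library totals the calls were 5885 higher and 3145 lower. Both compounds share the DMSO libraries as their control, so only this direct contrast bears on how they differ. acs-2 had 531, 1011, 584 and 565 CPM with BAY2402234 and 24.99, 33.3, 18.7 and 12.9 CPM with brequinar (log2 fold change 4.9, SE 0.35, edgeR adjusted p = 5.94e-09), with 78.3, 56.4, 91.8 and 104 CPM in DMSO. adh-1 had 915, 1172, 832 and 1024 CPM with BAY2402234, against 25.6, 34.1, 28.5 and 22.5 CPM with brequinar (log2 fold change 5.15, SE 0.51, edgeR adjusted p = 9.86e-08). For both genes BAY2402234 lay above DMSO and brequinar below it, with no overlap. pals-31 had 9.11, 8.29, 7.11 and 7.39 CPM with BAY2402234, against 0.155, 0.154, 0.345 and 0.309 CPM with brequinar (log2 fold change 5.01, SE 0.46, edgeR adjusted p = 2.01e-08). dod-22 had 48.7, 29.1, 23.3 and 40.9 CPM with BAY2402234, against 1.14, 0.411, 0.937 and 0.617 CPM with brequinar (log2 fold change 5.5, SE 0.44, edgeR adjusted p = 7.18e-09).

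Other genes were lower with BAY2402234 than with brequinar. folt-2 had 49.9, 7.21, 11.1 and 36.5 CPM with BAY2402234, against 276, 229.7, 256 and 245 CPM with brequinar, where it overlapped the DMSO range (log2 fold change -3.27, SE 0.61, edgeR adjusted p = 0.000152). vit-1 had 344, 272, 611 and 764 CPM with BAY2402234, against 3244, 3945, 3569 and 4105 CPM with brequinar (log2 fold change -2.9, SE 0.29, edgeR adjusted p = 6.39e-08). hsp-17 had 6.51, 4.35, 6.97 and 8.41 CPM with BAY2402234, against 32.5, 30.9, 28.5 and 30.7 CPM with brequinar (log2 fold change -2.22, SE 0.23, edgeR adjusted p = 8.16e-08). In all 3 genes every BAY2402234 library was below every brequinar library. gba-2, a second glucocerebrosidase gene, had 1.18, 0.762, 0.974 and 1.16 CPM with BAY2402234, 5.53, 12.6, 67.2 and 27.5 CPM with brequinar and 0.804, 1.31, 0.994 and 1.09 CPM with DMSO (log2 fold change -4.78, SE 0.66, edgeR adjusted p = 5.11e-06). pgp-1, a P-glycoprotein gene, had 2.64, 3.58, 3.702 and 2.98 CPM with BAY2402234, 34.9, 31.4, 144 and 75.02 CPM with brequinar and 2.56, 5.86, 3.503 and 2.08 CPM with DMSO (log2 fold change -4.47, SE 0.41, edgeR adjusted p = 4.27e-08). For gba-2 and pgp-1 the BAY2402234 libraries overlapped those of DMSO, while each brequinar library was above both. acdh-2, a short-chain acyl-CoA dehydrogenase gene, had 0.774, 0.986, 1.56 and 1.51 CPM with BAY2402234, 18.8, 14.9, 15.6 and 10.8 CPM with brequinar and 1.66, 1.97, 1.62 and 1.66 CPM with DMSO (log2 fold change -3.64, SE 0.3, edgeR adjusted p = 7.12e-09). By list, 19 of 22 cytosolic heat shock genes, 48 of 52 germ line genes and 58 of 80 ribosomal protein genes were lower with BAY2402234. The ribosomal count was 16 without BAY2402234 replicate 1, 23 without BAY2402234 replicate 4, 28 without brequinar replicate 1 and 18 with library totals. Higher with BAY2402234 were 117 of 185 nuclear receptors and 19 of 22 pals genes. So were 54 of 72 sperm genes, but 14 without BAY2402234 replicate 1, the library with the highest sperm share.

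**Figure D5:**
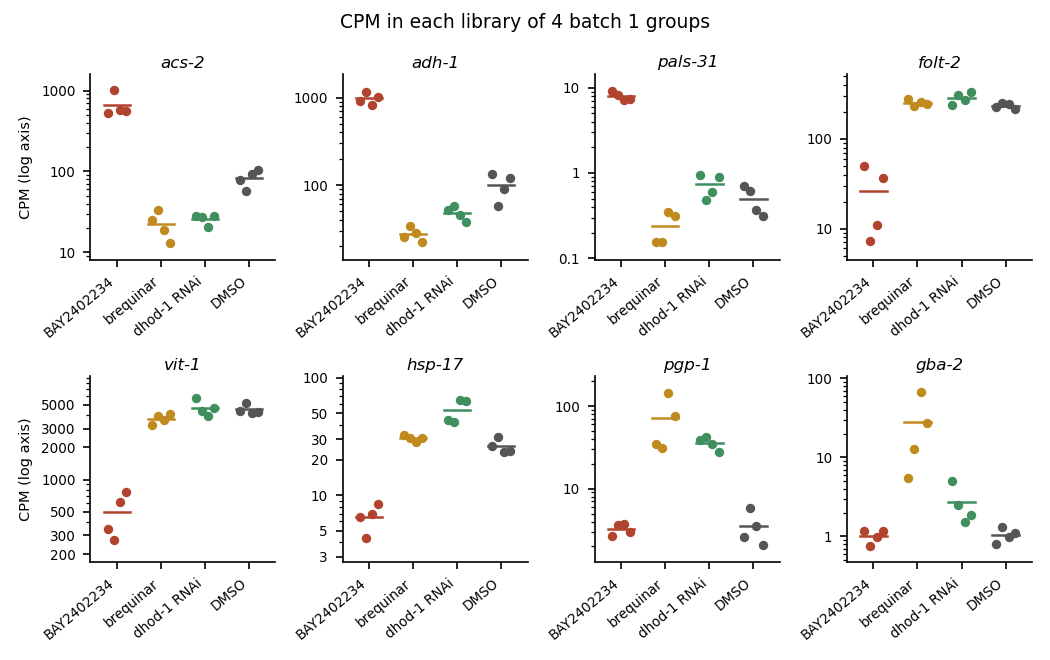
CPM (log axes) of 8 genes in each library of BAY2402234, brequinar, dhod-1 RNAi and DMSO, with replicates 1 to 4 from left to right and the group mean as a bar. acs-2, adh-1 and pals-31 are higher and folt-2, vit-1 and hsp-17 lower in every BAY2402234 library than in any library of the other 3 groups, whereas pgp-1 and gba-2 are higher in every brequinar and dhod-1 RNAi library than in any BAY2402234 or DMSO library.

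The contrast with dhod-1 RNAi sets the compound against knockdown of the gene for the worm enzyme. dhod-1 itself had 56.4, 63.3, 68.2 and 58.5 CPM with BAY2402234, 58.1, 78.5, 68.2 and 70.8 CPM with dhod-1 RNAi and 82.7, 79.8, 90.3 and 81.4 CPM with DMSO. Each knockdown library was below each DMSO library, replicate 2 only narrowly. Reads from the fed double-stranded RNA may be among these counts, so the strength of the knockdown cannot be read from them. The direct contrast of the compound with the knockdown did not pass for dhod-1 (log2 fold change -0.16, SE 0.08, edgeR adjusted p = 0.103). The contrast called 6677 genes (44.1%), 2974 higher and 3703 lower with BAY2402234 (19.6% and 24.5%), of which 1571 (10.4%) and 1270 (8.39%) by at least 2-fold. With library totals the split was 4044 higher and 3091 lower. acs-2 had 531, 1011, 584 and 565 CPM with BAY2402234, against 28.2, 27.4, 20.4 and 28.2 CPM with dhod-1 RNAi (log2 fold change 4.69, SE 0.35, edgeR adjusted p = 1.21e-08). aqp-1 had 168, 186, 118 and 217 CPM with BAY2402234, against 14.5, 13.2, 16.2 and 20.6 CPM with dhod-1 RNAi (log2 fold change 3.42, SE 0.23, edgeR adjusted p = 2.61e-09). The groups were far apart in both genes. clec-82, a C-type lectin gene, had 8.79, 5.06, 4.68 and 6.19 CPM with BAY2402234 and 0.157, 0.3895, 0.231 and 0.239 CPM with dhod-1 RNAi (log2 fold change 4.57, SE 0.53, edgeR adjusted p = 8.67e-07). hsp-17 went the other way, with 6.51, 4.35, 6.97 and 8.41 CPM with BAY2402234 and 43.4, 42.5, 64.8 and 63.02 CPM in the knockdown (log2 fold change -3.03, SE 0.23, edgeR adjusted p = 8.16e-09). gale-1 had 49.7, 49.9, 50.4 and 45.9 CPM with BAY2402234, 136, 127, 138 and 136 CPM with dhod-1 RNAi and 64.2, 64.8, 64.2 and 65.6 CPM with DMSO (log2 fold change -1.45, SE 0.07, edgeR adjusted p = 8.1e-12), so BAY2402234 lay below DMSO and the knockdown above it. folt-2 (240.3, 305, 273 and 332 CPM) and vit-1 (5811, 4404, 3942 and 4643 CPM) overlapped the DMSO range in the knockdown, and both were lower with BAY2402234 (log2 fold changes -3.46 and -3.24, edgeR adjusted p = 0.000161 and 6.11e-08). Ribosomal protein genes were higher with BAY2402234 than with the knockdown in 59 of 80 cases and lower in 1, and the higher ones numbered 35 without BAY2402234 replicate 3, 30 without dhod-1 RNAi replicate 3 and 29 without dhod-1 RNAi replicate 4. Of 22 heat shock genes 17 were lower with BAY2402234. Of 52 germ line genes 3 were higher and 2 lower, where the higher ones numbered 12 without dhod-1 RNAi replicate 1, 6 without dhod-1 RNAi replicate 2 and 10 with library totals. The germ line list held 2.92%, 2.996%, 2.01% and 1.56% of counts in dhod-1 RNAi replicates 1 to 4, against 2.56% to 2.7% with BAY2402234. The knockdown libraries thus lay on both sides of BAY2402234, so the few calls do not show that the groups were alike.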

How the data were processed

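Whole worms were sequenced on the BGISEQ-500, per the labels' protocols. The authors deposited a table of raw read counts per gene, 27782 identifiers by 36 libraries; per the submitters' processing notes FastQC, STAR 2.7.3a, DESeq2 1.40.2 and build WBcel235 were used. The counting tool, its strand setting and the treatment of reads that match several genes are not given in the sources used here, so overlapping and antisense genes may share reads. Of the identifiers 27414 could be given a name and 27563 were found in the WBcel235 annotation.

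From the deposited counts, genes were filtered with filterByExpr (minimum count 10), scaled by TMM and tested with edgeR 4.0.16 (quasi-likelihood, R 4.3.3), with all 24 batch 1 libraries in a single fit and Benjamini-Hochberg adjustment over all 15142 genes at 0.05. CPM (counts per 1000000 of the TMM-scaled total) is not corrected for gene length, so levels are compared only within a gene. The SE of a log2 fold change was its size divided by the root of the F statistic. No 2 libraries of a group agreed within sampling noise (lowest chi-square per degree of freedom 9.54 with BAY2402234 and 6.16 with DMSO). The labels call the 4 libraries per group biological replicates without naming separate cultures, so p-values measure the spread between these samples. The fit was also run on simulated data in which far fewer genes changed than were called here, so that run does not bear on the number of calls.

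List members without a match by name were left out. The 70 gene lists, the members and the rule for named genes were chosen with earlier results of these data known. The rule named the 12 largest rises and falls with a symbol, a mean of at least 5 CPM in 1 group and groups fully apart, the 6 largest gains and losses in mean CPM, the pyrimidine genes, up to 5 called members of each other list by smallest p, and the 6 largest differences each way in each direct contrast. The conditions on symbol, level and separation held in the direct contrasts too. Where the rule required groups fully apart, that separation is no added evidence. hsp-16.48 was left out of it because its symbol stands for identical copies, and some genes it named are not described. COX1, acdh-1, atfs-1, cpr-1, eef-1A.2, fat-6, hphd-1, hsf-1, hsp-6, mxl-3, rnr-1, rnr-2, tts-1, vit-5 and vit-6 fall outside the rule and were chosen after their values were seen. Alternatives were DESeq2 1.42.0, its size factors, library totals, other filters, only the compared groups, a replicate block and leaving out each library. Sequences and promoter motifs were not analysed here.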

Additional observations from a re-analysis of the deposited data

Results flagged for a closer look

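In 20 of 320 sets of 4 libraries (each named gene in each group), the highest or lowest library stood apart from the other 3 by more than Dixon's 95% critical value. Chance alone would do so in about 1 in 20 sets, so most of these may be chance. Of the 20, 12 were in the BAY2402234 group, 4 of them in its replicate 1, and 8 in the DMSO group.

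Among the BAY2402234 libraries, acs-2 had 1011 CPM in replicate 2, against 531 to 584 CPM in the other 3. tts-1 had 555 CPM in replicate 3, against 875 to 937 CPM in the other 3. asah-1 had 302 CPM in replicate 4, against 185 to 199.8 CPM in the other 3. asp-6 had 4205 CPM in replicate 1, against 3036 to 3169 CPM in the other 3. atf-6 had 27.9 CPM in replicate 3, against 32.5 to 33.2 CPM in the other 3. tyms-1 had 70.7 CPM in replicate 1, against 88.1 to 90.5 CPM in the other 3. ogt-1 had 167 CPM in replicate 1, against 191 to 193 CPM in the other 3. ent-2 had 173 CPM in replicate 4, against 115 to 124 CPM in the other 3. ent-3 had 3.78 CPM in replicate 1, against 0.579 to 0.762 CPM in the other 3. gale-1 had 45.9 CPM in replicate 4, against 49.7 to 50.4 CPM in the other 3. phb-2 had 164 CPM in replicate 3, against 138 to 142 CPM in the other 3. spp-23 had 4.72 CPM in replicate 4, against 0.762 to 1.37 CPM in the other 3. In acs-2 and asp-6 each remaining BAY2402234 library was also above all DMSO libraries. ent-3 and ent-2 did not pass the test.

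Among the DMSO libraries, cyp-33C12 had 0.1004 CPM in replicate 1, against 0.0505 to 0.0523 CPM in the other 3. math-38 had 0.657 CPM in replicate 2, against 0.201 to 0.261 CPM in the other 3. clec-4 had 20.7 CPM in replicate 3, against 8.98 to 10.5 CPM in the other 3. atf-6 had 23.4 CPM in replicate 2, against 19.1 to 19.6 CPM in the other 3. F19B6.1 had 230.1 CPM in replicate 1, against 252 to 256 CPM in the other 3. lonp-1 had 107 CPM in replicate 1, against 116 to 118 CPM in the other 3. acdh-2 had 1.97 CPM in replicate 2, against 1.62 to 1.66 CPM in the other 3. hsp-1 had 3079.7 CPM in replicate 1, against 3395 to 3430.3 CPM in the other 3. The DMSO values of cyp-33C12 rest on 1 or 2 reads per library, and those of math-38 and acdh-2 on few.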

How the results depend on the processing

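Against DMSO, the number of genes lower was 1691 with library totals only and 2087 with a stricter filter (5 CPM in at least 4 libraries, 9690 genes tested), against 3569. The called, higher and lower counts against brequinar were 5920, 3199 and 2721 with that filter, against 9598, 5021 and 4577. Against dhod-1 RNAi, called and lower counts were 4325 and 2239 with only the compared groups, against 6677 and 3703. Fewer genes were tested under the stricter filter, lists included (7 of the pals genes and 29 of the lectins rose). Lists that kept all their members changed too. Of 80 ribosomal protein genes 34 fell with that filter, against 62, and their median was -0.26, against -0.39. Of 33 complex I genes 12 fell, against 28. TMM scaling was computed again after each filter. The cause of the differences was not tested for this or any other setting. DESeq2 called 6903 genes against DMSO.

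Leaving out each library in turn gave 5507 to 7269 calls against DMSO (2687 to 3717 higher, 2383 to 3552 lower), 7968 to 9781 against brequinar (4273 to 5318 higher, 3375 to 4561 lower) and 5611 to 6984 against dhod-1 RNAi (2445 to 3218 higher, 3166 to 3766 lower). With the replicate number as a block the calls were 7329, 9814 and 6793. The deviations of BAY2402234 and DMSO libraries with the same number correlated at 0.56, 0.32, 0.04 and 0.19 for numbers 1 to 4. Numbers 1, 2 and 4, but not 3, correlated best with their own. The main fit took no pairs, so spread shared by libraries of the same number, above all number 1, stayed in it. The source of that shared spread was not tested. Of 141 named genes called against DMSO 133 were called in every alternative and 8 were lost in some (F40F8.1, ND1, atfs-1, eef-1A.1, ent-1, ent-4, ent-6 and upp-1), and of 19 not called 3 were called in some (fat-6, hsf-1 and vit-6). No sign turned among called values. CPM values below about 1 rest on few reads.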

Other observations

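Families of adaptor and receptor genes that lie mostly at low levels rose more often than they fell, as did all genes at low levels. In the lowest, second and middle bins of mean CPM, 22.1%, 33.1% and 35.4% of all genes rose and 1.49%, 4.52% and 11.3% fell. The shares were 36.7% and 9.18% for the F-box and BTB/MATH genes and 40.4% and 3.85% for the chemoreceptor genes. These lists were not matched for level. Of 305 tested F-box and BTB/MATH genes, which select proteins for ubiquitination, 112 rose and 28 fell, and the falls numbered 17 without BAY2402234 replicate 1, 18 without DMSO replicate 2 and 13 with library totals, where 147 rose. math-38, of the MATH domain family, had 8.605, 2.73, 2.87 and 11.5 CPM with BAY2402234, against 0.201, 0.657, 0.261 and 0.208 CPM with DMSO (log2 fold change 4.25, SE 0.69, edgeR adjusted p = 0.0001), with replicates 1 and 4 the highest. rcd-1, which is in none of these families and is 1 of the 12 largest rises, had 3.28, 11.1, 5.16 and 2.98 CPM with BAY2402234, against 0.904, 0.9095, 0.314 and 0.519 CPM with DMSO (log2 fold change 3.07, SE 0.43, edgeR adjusted p = 2.27e-05), with replicate 2 the highest. Of 1253 annotated chemoreceptor genes 104 could be tested, of which 42 rose, or 26 without BAY2402234 replicate 4, and 4 fell. Of 51 genes of the zygotic embryo 18 rose and 3 fell, or 1 without BAY2402234 replicate 1 and with library totals, with embryos in the worms not counted in the labels. Of 578 tested pseudogenes 131 rose, or 22.7%, close to the 23.2% over all genes, and 47 fell. Of 5 tested small nuclear RNAs 4 rose.

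Central metabolism and the lysosome went both ways. Of 27 genes of glycolysis, gluconeogenesis and pyruvate oxidation 5 rose and 12 fell, or 6 and 7 with library totals, and the rises numbered 3 without BAY2402234 replicate 4 or DMSO replicate 2. Of 20 genes of the tricarboxylic acid and glyoxylate cycles 4 rose and 11 fell, or 5 and 6 with library totals. Of 48 genes of the vacuolar ATPase, autophagy and lysosome 13 rose and 20 fell, or 17 and 6 with library totals. Of 100 hypodermis and molting genes 26 rose and 12 fell, or 36 and 9 with library totals. The 26 rises are 26% of the list, close to the 23.2% over all genes. They numbered 12 without BAY2402234 replicate 4, 14 without DMSO replicate 2 and 17 without DMSO replicate 3. Of 26 nuclear pore genes 23 fell, 15 without BAY2402234 replicate 1 and 10 with library totals.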
